A study of Arabidopsis thaliana with 13 samples.

Results

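The 4 h step between hour 18 and hour 22 of the day was followed in whole seedlings of Arabidopsis thaliana Col-0, the standard laboratory accession. Hours are those of the time course taken modulo 24, so hour 22 is represented by the arrays of hours 46 and 70 and hour 18 by those of hours 42 and 66. These 4 arrays, of 13 in all, form 2 successive pairs, hours 42 to 46 in the first cycle and hours 66 to 70 in the second. No hour was sampled more than once, and arrays 24 h apart stand as the samples of 1 hour of day, so that p-values measure the spread between these arrays only.

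All arrays share 1 genotype and treatment. Per the labels, seedlings stood on agar plates of MS medium (a mix of mineral salts) containing 3% sucrose, at 22 C and under a photoperiod of 12 h, in a growth room. Sampling ran every 4 h between hours 26 and 74. What hour 0 was, and whether lights kept cycling during sampling, is not stated in the labels. Hour 22 is therefore not called night or day here. No label states that the arrays came from separate batches of plants.

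RNA was read on Affymetrix ATH1 arrays, in which a set of short probes reports on each transcript, and the deposited value is 1 intensity per probe set, called its signal. The arrays were alike in scale, with a trimmed mean signal of 100.01 on each and median signals of 46.8 to 50.9. Leaf and root genes were both present at all 4 arrays. The antenna gene LHCB4.1 had signals of 2900 and 3606 at hours 46 and 70, against 3054 and 2769 at hours 42 and 66. The root gene PYK10 had 2725 and 3235 at hours 46 and 70, against 3023 and 2900 at hours 42 and 66. In whole seedlings, a change in the share of cells that hold a transcript and a change in its level per cell cannot be told apart.

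In Arabidopsis, a circadian clock of interlocking transcriptional repressors and activators sets when in the day many genes are transcribed. Its outputs include genes of photosynthesis, starch turnover, cold response and the flavonoid pathway. Flavonoids are made from phenylalanine, and a late branch of the pathway makes the purple anthocyanins, which are decorated with sugars and acyl groups before storage in the vacuole. A transcript whose level moves over a 4 h step has synthesis and decay out of balance, and that imbalance may have begun earlier. The arrays measure the resulting level only. Switched means here that the signal changed at least 2-fold in the same direction in both cycles.

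Few transcripts switched. Of the 13647 probe sets bright enough to test, 29 had a signal at least 2-fold higher at hour 22 than at hour 18 in both cycles (0.213% of those tested) and 14 had one at least 2-fold lower in both (0.103%). In 2 probe sets (0.0147%) the change was at least 2-fold in opposite directions in the 2 cycles, and 161 passed 2-fold in 1 cycle only. Among the switched ones, 7 of the 29 higher and 8 of the 14 lower could be given a single gene. The others are described without a name, because the platform annotation used here gave them several genes (1 probe set) or none.

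A model of all 13 arrays with 1 mean per hour of day (limma, p-values adjusted by Benjamini-Hochberg over the tested probe sets) called 10 probe sets changed at an adjusted p under 0.05. Of these, 6 rose at hour 22 (0.0440% of those tested) and 4 fell (0.0293%), and 9 of the 10 were among the 43 switched in both cycles. At an unadjusted p under 0.05 the model counted 839 probe sets, where 682 would be counted by chance. The spread in this model was shared over all 13 arrays. Residual SD was 0.147 at hours 42 and 66, 0.141 at hours 46 and 70, and 0.138 to 0.229 at the other hours. Arrays outside the step therefore also bear on whether a probe set was called. Single arrays moved the counts of calls. The calls were 3 higher and 1 lower without hour 42, 2 and 3 without hour 46, 11 and 1 without hour 66, and 2 and 2 without hour 70, against 6 and 4 with all arrays.

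**Figure D1:**
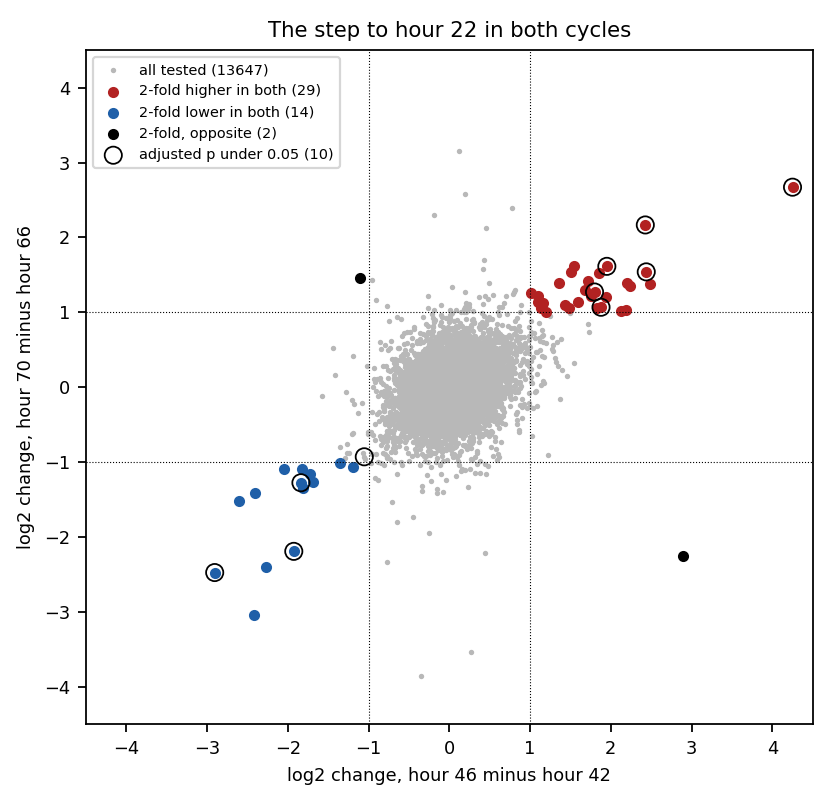
Each point is 1 tested probe set, with the log2 change at hour 46 relative to hour 42 on the horizontal axis and the log2 change at hour 70 relative to hour 66 on the vertical axis. Dotted lines mark 2-fold. The 29 probe sets higher in both cycles lie at the upper right, the 14 lower in both at the lower left, the 2 with opposite changes are black, and rings mark the 10 called ones.

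Only 2 of the 10 called probe sets have a single gene here, and both fell. AT4G32340 had signals of 89.7 and 90.7 at hours 46 and 70, against 341 and 414 at hours 42 and 66. Both hour 22 arrays thus lay far below both hour 18 arrays, a 4.16-fold difference between the hour means. The change was -2.06 ± 0.21 on the log2 scale (SE of the fit, adjusted p = 0.00193 by limma). This protein-coding locus has no symbol in the gene table and no role is given to it here. Its signal stayed low at hour 2, with 58.3, 96.1 and 85.6 at hours 26, 50 and 74, and was highest at hour 10, with 747 and 617 at hours 34 and 58.

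AT2G03310, also a protein-coding locus without a symbol, fell as well and was dimmer at both hours. Its signal was 7.36 and 14.6 at hours 46 and 70, against 55.1 and 81.2 at hours 42 and 66. All values at hour 22 lie under the signal of 31.8 below which probe sets were left out on their mean. The change was -2.69 ± 0.35 (SE of the fit, adjusted p = 0.0116 by limma), a 6.45-fold difference whose size rests on these dim values. Adding 16 or 32 to every signal before the logarithm gave -1.64 and -1.21 for AT2G03310, against -1.88 and -1.74 for AT4G32340, so the 2 loci have no fixed order. The call did not hold without hour 42 (adjusted p = 0.051), without hour 46 (0.104) or without hour 66 (0.102), and the adjusted p ranged from 9.01e-05 to 0.431 over its alternatives. At hour 2 the signal was back at 45.8, 89.0 and 91.8 in hours 26, 50 and 74.

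The course of AT2G03310 therefore had its lowest point at hour 22 itself. The change from hour 22 to hour 2 was 2.80 on the log2 scale, and the step into hour 22 differed from the step out of it by -5.49 (adjusted p = 0.00833 by limma for the difference). It was the only call in that comparison (0.00733% of those tested), which counted 1037 probe sets at an unadjusted p under 0.05. Without hour 66 there was no call, with 1025 probe sets at an unadjusted p under 0.05, and without hour 46 there were 2.

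All 6 called probe sets that rose lack a single gene in the annotation used here. Their changes ran from 1.47 to 3.46 on the log2 scale, and their adjusted p reached at most 0.0347. The one with the largest fold had signals of 160 and 146 at hours 46 and 70, against 8.42 and 22.9 at hours 42 and 66, an 11.0-fold difference between the hour means. Its values at hour 18 were dim, and its fold rests on them. The one with the smallest adjusted p (0.0015 by limma) had 119 and 124 at hours 46 and 70, against 22.2 and 27.6 at hours 42 and 66. The brightest of the 6 had 1861 and 2079 at hours 46 and 70, against 535 and 861 at hours 42 and 66. All 6 were at least 2-fold higher in both cycles.

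One of these risers also stood apart from the step before. Its signal was 162 and 131 at hours 46 and 70, against 44.0 and 62.5 at hours 42 and 66, after a change of -0.85 on the log2 scale between hours 14 and 18. The step into hour 22 exceeded the preceding one by 2.32 (adjusted p = 0.0378 by limma for the difference). It was the only call in that comparison (0.00733% of those tested), where 425 probe sets had an unadjusted p under 0.05. The call did not hold with the cycle as a block, where 0 probe sets were called and 605 had an unadjusted p under 0.05. That fit gives each cycle a level of its own. Hour 74 is the only array of cycle 3, so the block also takes that array out of the spread. The count of calls was 3 without hour 42, 5 without hour 66 and 0 without hour 46 or hour 70, with 429 and 348 probe sets at an unadjusted p under 0.05 in the last pair of fits.

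The 2 called probe sets without a gene that fell were less extreme. The first had signals of 33.8 and 45.9 at hours 46 and 70, against 121 and 111 at hours 42 and 66. The second had 99.0 and 108 at hours 46 and 70, against 205 and 206 at hours 42 and 66, and was the single called probe set under 2-fold in a cycle, with a change of -0.99.

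Among the 29 probe sets switched up, the fold between the hour means ran from 2.14 to 11.0 with a median of 2.88, and 7 belong to a single named locus. Of these, 3 encode enzymes of late anthocyanin synthesis. DFR, dihydroflavonol reductase, which makes the leucoanthocyanidins from which anthocyanidins derive, had signals of 611 and 805 at hours 46 and 70, against 185 and 302 at hours 42 and 66. Both hour 22 arrays lay above both hour 18 arrays. The choice by a 2-fold rise in both cycles favours this, and the 2 hours did not overlap in 36.6% of all tested probe sets. The change was 1.57 ± 0.38 (SE of the fit), which was not called (adjusted p = 0.262 by limma). With the cycle of the course as a block, that is with a level of its own for each cycle, the adjusted p was 0.0252, and it ranged from 1.31e-05 to 1 over its alternatives.

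AT4G14090, carried in the flavonoid list as UGT75C1, an anthocyanin glucosyltransferase, had 338 and 530 at hours 46 and 70, against 112 and 241 at hours 42 and 66. The fit spread was wide and the change of 1.36 ± 0.74 was not called (adjusted p = 0.881 by limma). Its arrays at hour 2 spread widely, with 242, 137 and 433 at hours 26, 50 and 74, and at hour 6 it read 2.15 and 11.9 at hours 30 and 54. UF3GT, also known as UGT79B1, which attaches a further sugar to anthocyanin glucosides, had 474 and 612 at hours 46 and 70, against 215 and 294 at hours 42 and 66. It was higher by 1.10 ± 0.46 (not called, adjusted p = 0.75 by limma). With the cycle as a block neither AT4G14090 nor UF3GT passed (adjusted p = 0.482 and 0.325 by limma).

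The remaining 4 named loci that switched up have no symbol and are given no role here. AT1G55960 had signals of 342 and 249 at hours 46 and 70, against 78.2 and 123 at hours 42 and 66 (1.57 ± 0.34, adjusted p = 0.191 by limma, not called). It passed with the cycle as a block (adjusted p = 0.016), within a range of 0.000907 to 0.891 over its alternatives. AT1G13650 had 106 and 95.2 at hours 46 and 70, against 33.1 and 38.7 at hours 42 and 66. AT1G66100 had 177 and 318 at hours 46 and 70, against 49.9 and 153 at hours 42 and 66. AT5G03350 had 66.7 and 117 at hours 46 and 70, against 31.1 and 53.3 at hours 42 and 66. In these last 2 loci the second cycle was higher at both hours, and the hours came close to each other across cycles although they did not overlap. AT1G13650, AT1G66100 and AT5G03350 were not called. With the cycle as a block they did not pass either (adjusted p = 0.269, 0.198 and 0.63 by limma).

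Among the 14 probe sets switched down, signals at hour 22 were 2.19-fold to 6.63-fold lower than at hour 18, with a median of 2.97-fold. The brightest named one was CCL, or CCR-like, whose transcript is known in Arabidopsis for stability that varies with the clock. It had signals of 223 and 491 at hours 46 and 70, against 1184 and 1305 at hours 42 and 66. The hour 18 arrays lay close together, while the hour 22 arrays were further apart. The change was -1.91 ± 0.56 (adjusted p = 0.42 by limma, not called), and it passed with the cycle as a block (adjusted p = 0.0391), within a range of 8.82e-05 to 0.898 over its alternatives.

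The other named loci that switched down have no symbol. AT4G34950 had 177 and 165 at hours 46 and 70, against 584 and 368 at hours 42 and 66 (-1.44 ± 0.32, adjusted p = 0.219 by limma). AT3G62550 had 119 and 147 at hours 46 and 70, against 420 and 314 at hours 42 and 66 (-1.46 ± 0.61, adjusted p = 0.751 by limma). AT4G30650 had 179 and 167 at hours 46 and 70, against 412 and 348 at hours 42 and 66 (-1.13 ± 0.40, adjusted p = 0.623 by limma). In all 3 the hour 22 arrays lay close together and the first cycle started from a higher level at hour 18. AT4G16146 had 39.6 and 48.9 at hours 46 and 70, against 164 and 104 at hours 42 and 66. AT1G07050 was dim, with 12.7 and 21.3 at hours 46 and 70, against 32.5 and 43.0 at hours 42 and 66. None of these 5 was called, and with the cycle as a block AT4G34950, AT4G30650 and AT4G16146 passed, with adjusted p-values of 0.0139, 0.0269 and 0.0127 within ranges of 9.23e-05 to 0.919, 0.000128 to 1 and 0.00116 to 0.725 over their alternatives.

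**Figure D2:**
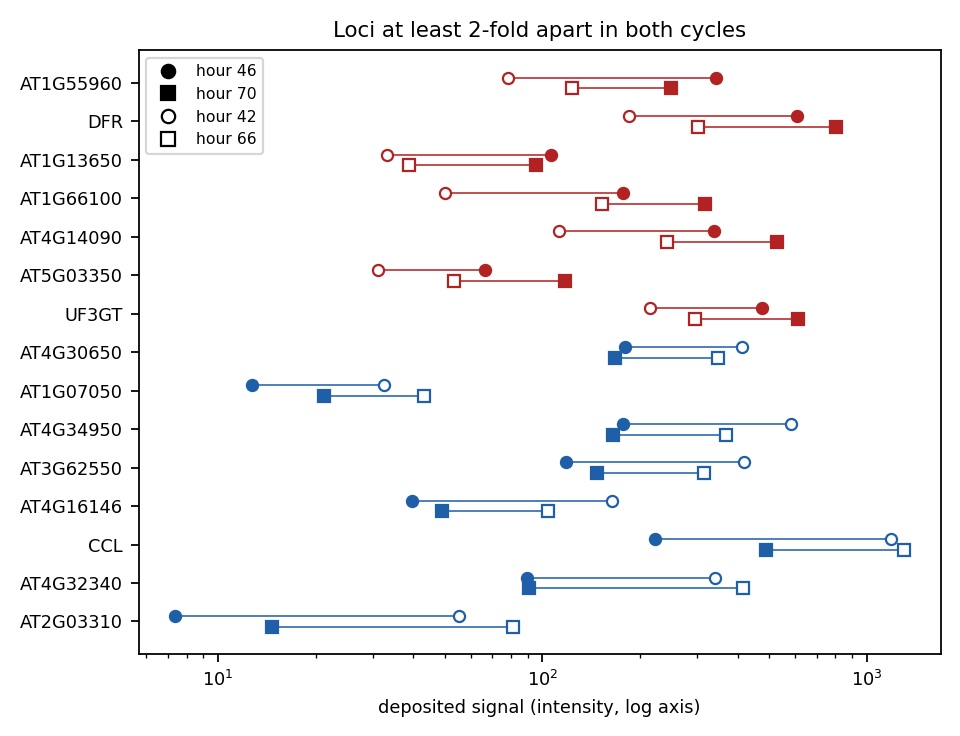
Deposited signals on a log axis for the 15 named loci at least 2-fold apart in both cycles, with hour 22 as filled symbols (hours 46 and 70) and hour 18 as open ones (hours 42 and 66), circles for the first cycle and squares for the second. Red loci were higher at hour 22 and blue ones lower. CCL is the brightest of those lower at hour 22, and AT2G03310 reaches the lowest signals, 7.36 and 14.6 at hours 46 and 70.

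The first cycle gave the larger step in most of them. The change from hour 42 to hour 46 exceeded that from hour 66 to hour 70 in size in 23 of the 29 probe sets switched up, with medians of 1.75 and 1.25 on the log2 scale. The same held for 11 of the 14 switched down, with medians of -1.88 and -1.31. Over all tested probe sets the spread of the changes was alike in the 2 cycles, with quartiles of -0.15 and 0.16 in the first and -0.17 and 0.15 in the second. The difference between the cycles was not tested, since each time point has 1 array.

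Dimness matters for the membership. Of the 43 switched probe sets, 26 had at least 1 array of the course under the filter signal of 31.8. In 9 of those higher at hour 22 a low hour 18 value was among these, and in 4 of those lower at hour 22 a low hour 22 value was. Adding 16 to every signal before the logarithm left 17 at least 2-fold higher in both cycles and 11 lower, and adding 32 left 12 and 8. Among the 9099 dimmer probe sets that were not tested, opposite changes were as frequent as shared ones, with 236 at least 2-fold higher in both cycles, 124 lower and 360 opposite.

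Through the day, the step to hour 22 was part of a longer movement in both directions. In the 29 probe sets switched up, the hourly mean peaked at hour 22 in 13, at hour 2 in 8 and at hour 6 in 8. Their lowest hour was 14 in 13 of them, 10 in 9, 18 in 6 and 6 in 1. The mean at hour 2 was still above that at hour 22 in 16, and in 22 of the 29 all 3 arrays of hour 2 lay above both arrays of hour 18. These probe sets were chosen on hours 18 and 22 of the same arrays, so they could not peak at hour 18 or be lowest at hour 22. The counts that set hour 2 against either hour reuse the chosen values. DFR, AT4G14090 and UF3GT were among those that peaked at hour 22 and were lowest at hour 10.

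In the 14 probe sets switched down, the peak fell at hour 10 in 11, at hour 14 in 2 and at hour 6 in 1, and the lowest hour was 2 in 8 and 22 in 6. The choice likewise kept these 14 from peaking at hour 22 or being lowest at hour 18. In 11 of them all 3 arrays of hour 2 lay below both arrays of hour 18. CCL is an example, with 2513 and 2423 at hours 34 and 58 (hour 10) and 200, 624 and 1049 at hours 26, 50 and 74 (hour 2). The hour 2 arrays of CCL spread over a wider range, by ratio, than those of any other hour of day.

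**Figure D3:**
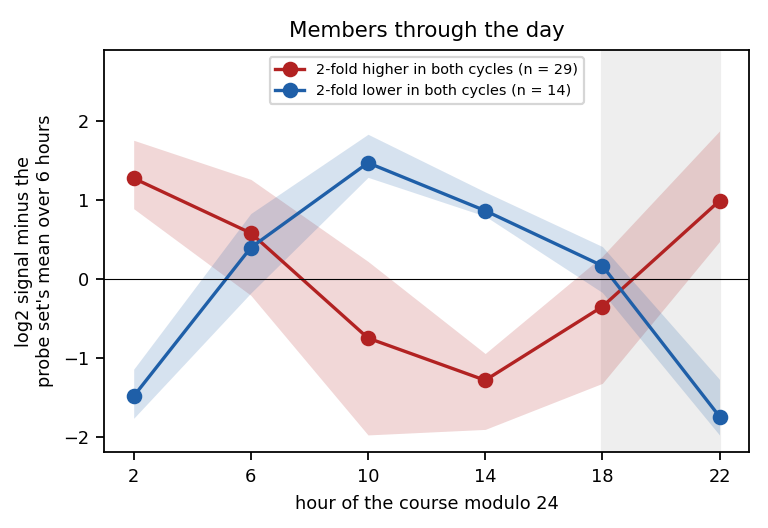
Median log2 signal of the probe sets switched up (29, red) and down (14, blue), each relative to the probe set's own mean over 6 hours, against the hour of the course modulo 24, with bands for the quartiles over probe sets. The step is shaded. The red median lies at 0.99 at hour 22 and -0.35 at hour 18, and the blue one at -1.75 at hour 22 and 0.17 at hour 18. The probe sets were chosen on these 2 hours, so the direction of the shaded step is set by the choice.

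Each of the 6 successive 4 h steps of the day held such switches. The step from 18 to 22 had 43 shared and 2 opposite, against 103 and 7 from 2 to 6, 95 and 3 from 6 to 10, 57 and 3 from 10 to 14, 47 and 3 from 14 to 18, and 47 and 5 from 22 to 2. More were higher than lower in the steps from 14 to 18 (32 and 15), 18 to 22 (29 and 14), 22 to 2 (33 and 14) and 2 to 6 (62 and 41). More were lower in the steps from 6 to 10 (43 higher and 52 lower) and 10 to 14 (20 and 37). These are counts from the same arrays, neighbouring steps share an hour, and no test was made between them.

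Most transcripts differed little between the 2 hours. Over the tested probe sets, 57.0% moved in the same direction in both cycles, and the signals at hour 22 lay all above or all below those at hour 18 in 4995 (36.6%). With 2 arrays per hour, scatter alone often gives such separation or a shared direction. Neither is therefore evidence of a change in a single locus. Across probe sets, which are not independent, the changes of the 2 cycles correlated with r = 0.32 (n = 13647 points that share arrays, scaling and probe design). The median SE of the fitted step was 0.17 on the log2 scale. Of the 7252 single-gene loci tested, each taken at its brightest probe set, 27.4% were higher at hour 22 in both cycles and 28.5% were lower, and the median change was -0.00296.

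The flavonoid and anthocyanin list stood as follows against that background. It holds 27 loci, of which 9 were annotated on the array and 8 bright enough to test. None of the 8 was called by limma, where 10 of all 13647 tested probe sets were. Calls were so rare that their absence from this list, or from those below, says little about its members. In both cycles 8 of 8 were higher at hour 22, and 3 had an unadjusted p under 0.05. Their median change was 0.82 on the log2 scale, against -0.00296 over all loci, with a range of 0.06 to 1.57. The list was drawn up with results of these data known, and most of its members were without a named probe set here, so its counts describe the measured members only.

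Beside DFR, AT4G14090 and UF3GT, the list holds UGT78D2, which glucosylates anthocyanidins and flavonols. Its signal was 474 and 480 at hours 46 and 70, against 309 and 304 at hours 42 and 66, and the change was 0.64 ± 0.15 (adjusted p = 0.262 by limma, not called). The 2 cycles gave nearly the same values for it. AT5MAT, which adds a malonyl group to anthocyanins, had 103 and 157 at hours 46 and 70, against 55.8 and 72.9 at hours 42 and 66. It stayed just outside the 2-fold criterion, with 0.89 in the first cycle and 1.10 in the second. With the cycle as a block neither UGT78D2 nor AT5MAT passed (adjusted p = 0.0954 and 0.603 by limma).

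The last 3 tested members had fitted changes of 0.06 to 0.41. UGT78D1, a flavonol rhamnosyltransferase, had 233 and 232 at hours 46 and 70, against 209 and 203 at hours 42 and 66 (0.17 ± 0.24). AT1G06000, in the list as the flavonol rhamnosyltransferase UGT89C1, had 437 and 399 at hours 46 and 70, against 402 and 398 at hours 42 and 66 (0.06 ± 0.16), and its hours overlapped. CHIL, a chalcone isomerase-like protein that assists the first steps of the pathway, had 461 and 536 at hours 46 and 70, against 445 and 314 at hours 42 and 66, and its step was 0.05 in the first cycle and 0.77 in the second. All 8 tested members had their highest hourly mean at hour 22 and their lowest at hour 6 or 10. In all 8 the change from hour 14 to hour 18 was larger than that from hour 18 to hour 22. It was 1.88 for DFR, 2.54 for AT4G14090, 1.53 for UF3GT and 1.67 for AT5MAT. For UGT78D2 it was 0.77, for UGT78D1 1.05, for AT1G06000 1.09 and for CHIL 1.04. None of the 8 was called in the comparison of these 2 steps. UGT78D3, a further glycosyltransferase of the list, was too dim to test, with 14.8 and 13.6 at hours 46 and 70, against 9.84 and 3.78 at hours 42 and 66.

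**Figure D4:**
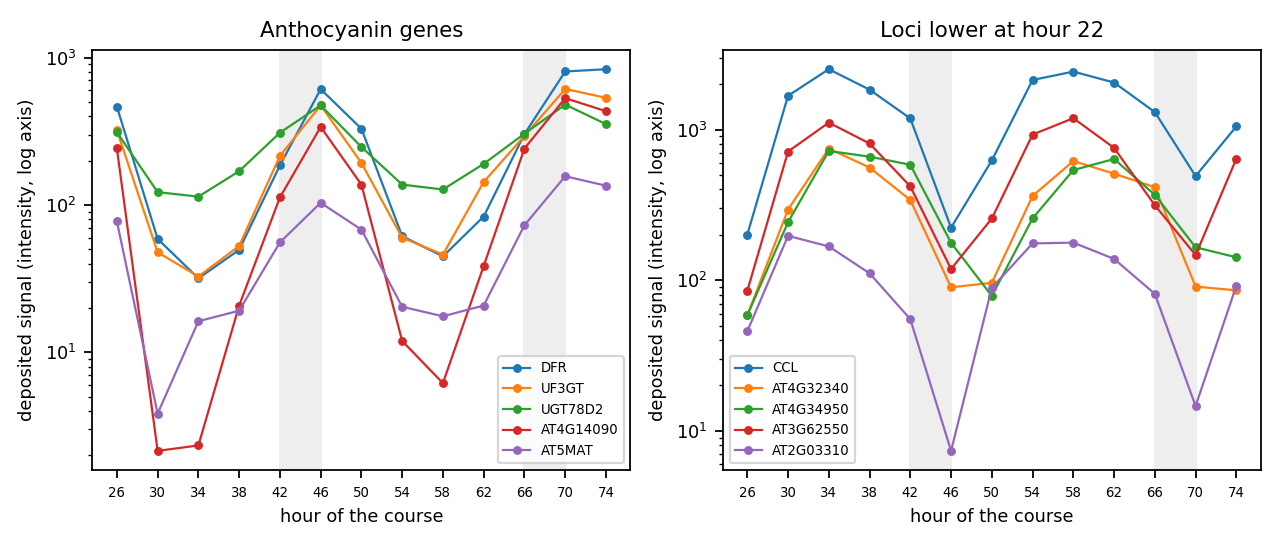
Deposited signals on a log axis over the 13 hours of the course for 5 genes of anthocyanin synthesis (left) and 5 loci lower at hour 22 (right), 1 array per point, with the steps from 42 to 46 and 66 to 70 shaded. The anthocyanin genes end both shaded steps higher and the loci on the right end both lower, and AT2G03310 stands at 89.0 and 91.8 by the next array.

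In the light-harvesting antenna list, 3 of 18 loci were tested and none was called. LHCB4.2, which encodes a minor antenna protein (CP29) of photosystem II, had 2145 and 2706 at hours 46 and 70, against 1291 and 1662 at hours 42 and 66. The change was 0.72 ± 0.19 and nearly equal in the 2 cycles, but it was not called (adjusted p = 0.359 by limma). Its paralogues were at 0.15 ± 0.19 (LHCB4.1) and 0.15 ± 0.20 (LHCB4.3), and in both of them the hours overlapped. Whether LHCB4.2 differs from them was not tested, and probes of such similar transcripts may share signal. HYH, a bZIP factor of light signalling related to HY5, had 86.2 and 68.6 at hours 46 and 70, against 62.7 and 45.5 at hours 42 and 66 (0.53 ± 0.30, not called).

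Of the chlorophyll synthesis list, 5 of 19 loci were tested and none was called, with 2 higher and 2 lower in both cycles. Over all tested loci, 27.4% were higher and 28.5% lower in both cycles. HEME2, an enzyme of the tetrapyrrole path, was at 0.29 ± 0.13, CHLM, the magnesium protoporphyrin methyltransferase, at 0.18 ± 0.14 and PORB, a light-dependent protochlorophyllide reductase, at -0.31 ± 0.28. The 3 tested Calvin cycle genes lay between -0.04 and 0.01, all with overlapping hours. Most tested probe sets overlapped too, with 36.6% that did not. The 3 of photorespiration lay between -0.18 and 0.11, with 2 lower in both cycles, and none was called.

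None of the 3 tested starch genes was called. DPE1, the plastid disproportionating enzyme of starch breakdown, had 73.4 and 81.5 at hours 46 and 70, against 124 and 117 at hours 42 and 66 (-0.64 ± 0.20, adjusted p = 0.508 by limma). PWD, which phosphorylates starch granules for breakdown, had 331 and 300 at hours 46 and 70, against 368 and 387 at hours 42 and 66 (-0.26 ± 0.19). Both tested breakdown genes were thus lower in both cycles, as were 28.5% of all tested loci. SBE2.2, a starch branching enzyme of synthesis, had 497 and 494 at hours 46 and 70, against 361 and 392 at hours 42 and 66 (0.40 ± 0.11, adjusted p = 0.42 by limma).

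The cold response list had 3 of 13 loci tested, all lower at hour 22 in both cycles, as were 28.5% of all tested loci, and none called, with a median change of -0.28. COR47, a dehydrin, was at -0.38 ± 0.21, COR15B, a chloroplast protectant, at -0.28 ± 0.40 and its paralogue COR15A at -0.11. In COR47 and COR15A the signals of the 2 hours overlapped. Both clock-linked members of the list, COR27 and its relative AT4G33980 (COR28), were too dim to test. COR27 had 9.95 and 6.92 at hours 46 and 70, against 37.3 and 40 at hours 42 and 66. AT4G33980 had 17.1 and 13.1 at hours 46 and 70, against 36.8 and 33.1 at hours 42 and 66. Both were therefore lower at hour 22 in both cycles, at signals where opposite changes were frequent.

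Of the clock itself only 4 of 26 listed loci carried a single-gene probe set here, and none was called. GI, a large protein that links the clock to flowering, read 38.9 and 43.4 at hours 46 and 70, against 35.4 and 53.9 at hours 42 and 66. Its hours overlapped, and its peak of 343 and 223 came at hours 34 and 58. XCT, a clock-period regulator, was at 0.25 ± 0.15, AT5G52660 (RVE6) at 0.09 ± 0.17 and TIC at 0.00 ± 0.17. The last 2 had overlapping hours and changed direction between the cycles.

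The remaining lists gave no call either. In seed storage and early seedling growth the 1 tested member was ICL, isocitrate lyase of the glyoxylate cycle, with 950 and 623 at hours 46 and 70, against 395 and 436 at hours 42 and 66 (0.89 ± 0.45, adjusted p = 0.853 by limma). Dark and sugar starvation genes lay between -0.08 and 0.33, cell expansion and hormone genes between -0.13 and 0.20, and sulfur and glucosinolate genes between -0.08 and 0.12. The 1 tested gene of phenylpropanoid entry, HCT, was at -0.01 and that of carotenoid synthesis, LYC, at 0.07. Root markers lay between -0.05 and 0.23 and reference genes between -0.19 and -0.03. These are means of the 2 cycles. Among the 5 reference genes, 1 was lower in both cycles and 0 were higher in both. Another of them changed by 0.64 in the first cycle and by -0.73 in the second. Nitrogen assimilation, touch and wounding, and heat shock had 0 members with a named probe set.

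**Figure D5:**
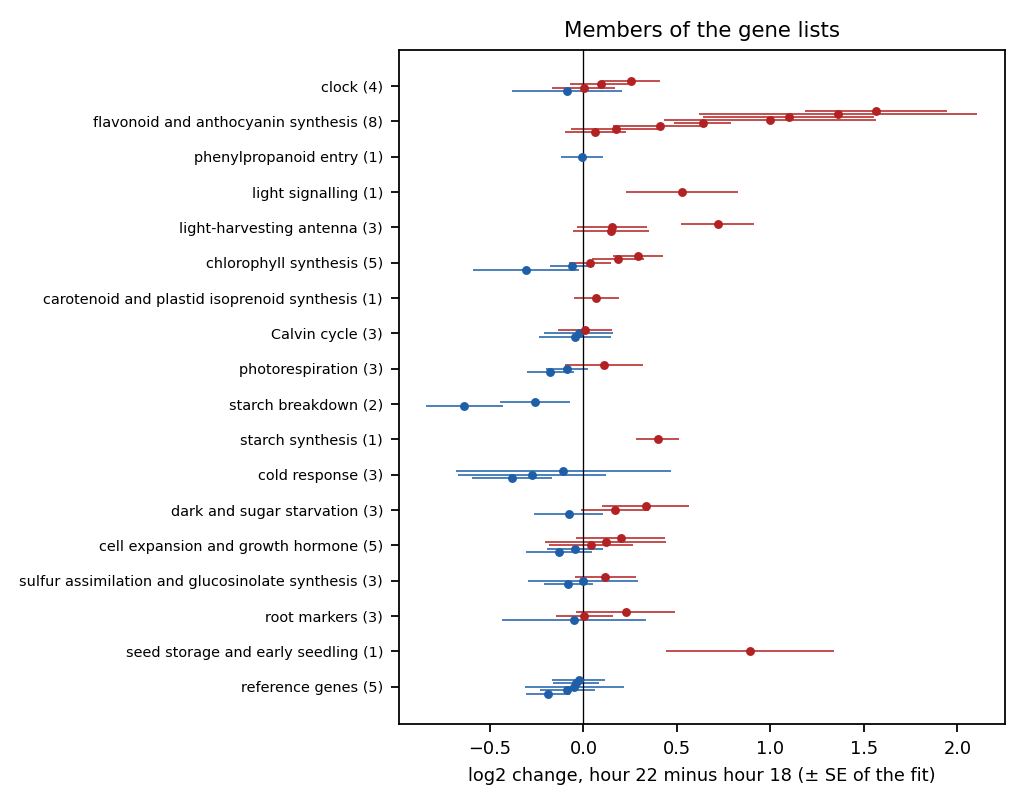
Log2 change at hour 22 relative to hour 18 for each of the 55 tested members of 18 gene lists, with the SE of the fit as a bar and the number of tested members in parentheses. All 8 flavonoid and anthocyanin members lie at or above 0.06, and reference genes lie between -0.19 and -0.03. None of the 55 was called, where 10 of all 13647 tested probe sets were.

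Outside the lists, the next loci by the size of the smaller change, none of them called, were less than 2-fold apart in at least 1 cycle. Higher at hour 22 were AT2G15010 (1.28 ± 0.51), AT3G09860 (1.24 ± 0.51), AT1G73480 (0.96 ± 0.19), THI2.2, which encodes thionin 2.2, a small defence-type peptide (0.90 ± 0.18), AT5G48490 (0.90 ± 0.21), AT3G02480 (0.88 ± 0.38), AT1G21500 (0.88 ± 0.16) and AT5G64850 (0.84 ± 0.17). Of these, AT5G48490 was the brightest, with 1046 and 1046 at hours 46 and 70, against 529 and 597 at hours 42 and 66. AT1G21500 had 512 and 555 at hours 46 and 70, against 286 and 294 at hours 42 and 66, so that the arrays of each hour lay close together. With the cycle as a block AT1G73480 passed (adjusted p = 0.0139, range 0.00383 to 0.772 over its alternatives), as did AT1G21500 (0.0489, range 0.000509 to 0.671) and AT5G64850 (0.0269, range 0.00699 to 0.671).

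Lower at hour 22 were AT5G38870, a pseudogene (-1.07 ± 0.41), AT1G52100 (-1.06 ± 0.33), AT1G56300 (-0.95 ± 0.29), AT4G14270 (-0.75 ± 0.24), CHL, the chloroplastic lipocalin, a lipid-binding protein of the chloroplast (-0.75 ± 0.21), and AT1G21680 (-0.73 ± 0.26). CHL had 201 and 207 at hours 46 and 70, against 344 and 340 at hours 42 and 66, nearly the same values in the 2 cycles. AT4G14270 had 160 and 171 at hours 46 and 70, against 279 and 279 at hours 42 and 66. It passed with the cycle as a block (adjusted p = 0.0276, range 0.00323 to 1 over its alternatives), as did AT1G56300 (0.0303, range 0.00478 to 1).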

How the data were processed

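RNA of 13 whole-seedling samples was read on ATH1 arrays. The authors deposited 1 intensity per probe set on a linear scale, and MAS5 is named per the submitters' processing notes, without a version. Every array has the same trimmed mean, so a change in total RNA per cell is not visible.

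Control probe sets were removed, which left 22746 on the log2 scale, and the 13647 whose mean exceeded the 40th percentile (a signal of 31.82) were tested. The linear model had 6 hour-of-day means and 7 residual degrees of freedom and was fitted in R 4.3.3 by limma 3.58.1 (eBayes with intensity trend), two-sided, with Benjamini-Hochberg adjustment over all tested probe sets. Differences between neighbouring steps were contrasts of the same fit. The procedure was also run on simulated arrays with a constant mean per probe set, normal noise and known added steps. These held no daily rhythm and no cycle effect, so they do not vouch for the calls made here. Figures were drawn with matplotlib 3.10.9 in Python 3.11.15. Precision is limited by the number of arrays, 2 per hour here.

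Alternatives were quantile and median scaling, offsets of 16 and 32, no filter or the 60th percentile, no trend, no moderation, the cycle as a block, a linear hour, and fits without arrays or with the 4 arrays only. Every fit of all arrays with the cycle as a block also drops hour 74, alone in cycle 3, from the spread. What passed there cannot be put down to the levels of the cycles alone. Of the probe sets, 13513 had 1 gene in the platform annotation, 503 had several and 8730 had none. Symbols came from the TAIR10.1 gene table, which matched 13436, and no coordinates are printed since no source used here names the array's build. Named genes are, in each direction, the 14 single-gene loci with the largest smaller change of the 2 pairs on log2(signal + 16), called ones first and then those with an unadjusted p under 0.05, and the brightest 2 uncalled members of each of 21 gene lists (301 loci, 59 annotated, 55 tested). The other list members, AT1G66100, AT5G03350 and the loci with opposite changes were named after their values were seen. RVE6, COR28, UGT75C1 and UGT89C1 are named from the lists. The members and lists were chosen with earlier results of these data known.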

Additional observations from a re-analysis of the deposited data

Results flagged for a closer look

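Opposite changes in the 2 cycles picked out a pair of loci for a second look. AT4G32605 had signals of 32.1 at hour 46, against 69.4 at hour 42, a change of -1.11 on the log2 scale, and 77.6 at hour 70, against 28.2 at hour 66, a change of 1.46. AT5G42330 had 56.1 at hour 46, against 7.57 at hour 42, a change of 2.89, and 19.5 at hour 70, against 93.3 at hour 66, a change of -2.26. With 1 array per time point the difference between the cycles was not tested.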

How the results depend on the processing

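With 2 arrays per hour of day and many dim probe sets, the few calls depend on how the spread is estimated. Against 6 higher and 4 lower calls, quantile scaling gave 11 higher, a linear hour 10 higher, and no intensity trend 2 lower. Without moderation there were 0 of each in limma, with 375 and 437 probe sets at an unadjusted p under 0.05. The cycle as a block gave 22 and 15, leaving out hours 26 and 74 gave 11 and 15, the 4 arrays alone 26 and 22, and the 4 arrays with the cycle as a block 165 and 122, and each of these 4 fits also made all 10 calls of the reported model. Of those 10, 6 remained without the filter and 6 without the trend, 0 without moderation, 9 with an offset of 32, and 3, 3, 7 and 4 without hours 42, 46, 66 and 70. Leaving out those hours gave 2 to 11 higher and 1 to 3 lower. The single call against the step before became 0 with an offset of 16 (415 at an unadjusted p under 0.05) or 32 (411), no filter (801), no trend (454), no moderation (461), the cycle as a block (605) and without hours 26 and 74 (548), and it was 0 to 5 without single arrays. That against the step after became 0 with an offset of 32 (1058) or no moderation (986), 5 without hours 26 and 74, and 0 to 2 without single arrays. The cause was not tested.

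The 2-fold counts of 29 higher, 14 lower and 2 opposite were 17 higher and 1 opposite with an offset of 16, then 12, 8 and 1 with 32, and 265, 138 and 362 without the filter. At the 60th percentile 0 were opposite. They were 105, 86 and 17 at 1.5-fold and 3, 4 and 1 at 3-fold. Of 55 named genes, 47 kept their direction throughout, and of 924 values 838 kept direction and side of the threshold, 66 passed it newly and 6 lost it. These counts are partly fixed in advance. Many of the genes were named because they moved the same way in both cycles. Several alternatives alter only the spread or the filter and leave the change itself as it was. AT4G32340 lost its call without moderation only (adjusted p = 0.21), and AT2G03310 also with an offset of 32 (0.0534). AT5G42330 reversed to -0.00434 (offset 16) and -0.0638 (offset 32). Leaving out single arrays moved it between -1.50 and 2.13, AT4G32605 between -0.47 and 0.83, GI between -0.39 and 0.22, TIC between -0.26 and 0.27, AT5G52660 between -0.10 and 0.28, TUB6 between -0.14 and 0.056, AT1G06000 between -0.00288 and 0.13, and LHCB4.1 between -0.00428 and 0.31. All labels carry 1 replicate number, so the pairing used is that of arrays from the same cycle, as in the fits with the cycle as a block.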
